A study of Mus musculus with 15 samples.

Results

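Sites of open chromatin within 1 kb of either end of a protein-coding gene were described in microglia, the resident macrophages of the brain. A site was a peak of an ATAC-seq library, an assay in which a transposase cuts accessible DNA, and its place was that of its summit, the point of highest signal. In each of 15 libraries the peaks on chromosomes 1 to 19 and X were kept, and those with a summit within 1 kb of a gene end were counted as end sites. This gave 408436 end sites among 2395081 peaks, or 17.05%, while the DNA within 1 kb of the 43262 ends of 21631 genes made up 2.98% of the span of those chromosomes (mm10, RefSeq genes of GRCm38.p6). Membership rested on position alone and used no measured height.

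The libraries came from C57BL/6 mice and fell into 7 groups. Untreated mice at postnatal day 9 (P9) gave 2 WT and 3 IRF8KO libraries, and untreated mice at P14 gave 2 of each genotype. At 10 months there were 2 libraries each of WT microglia, of X04 negative 5xFAD microglia and of X04 positive 5xFAD microglia, and all of these animals, WT included, had the treatment labelled MetoxyX04. Methoxy-X04 stains amyloid, and the 5xFAD line is an amyloid model whose transgenes are under the control of mouse Thy1 sequences, which are active in neurons. Whether replicates were separate animals is not in the labels, so a p-value here measures the spread between libraries only, which may be technical. Read depth was not analysed here. As a measure of library strength, the authors' −log10 p at rank 30000 was 6.04 and 6.29 in the X04 positive libraries and 18.63 to 80.63 in the other 13.

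The start of a gene carries the promoter, where transcription factors and RNA polymerase assemble on DNA kept free of nucleosomes. Many promoters of broadly used genes are rich in CpG dinucleotides and stay open in most cell types, while promoters of cell type-specific genes are more often poor in CpG. The far end of a gene is where transcription terminates, and it is not known as a general site of open chromatin. IRF8 controls transcription in myeloid cells and binds DNA together with PU.1, a factor of the ETS family, or with other partners.

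The promoters below belong to end sites on which the comparisons turned: 3 starts with a site among the 30000 top peaks of every WT library at P9 and P14 and none among the 126060 top peaks of any IRF8KO library, 3 with the reverse pattern, and the 2 starts with the best ranks over all 15 libraries. Each sequence is the 250 bases before the start, 5′ to 3′ on the gene's strand, from RefSeq (GRCm38.p6). Capitals mark the letters GAGGAAGT, a PU.1 motif, and GAAANNGAA, a tandem IRF motif, found on either strand; CCGGAA, the core of many ETS sites, was searched too and did not occur in them. Phf11d lies at chr14:59365491-59365740 on the minus strand, Ly86 at chr13:37345095-37345344 on the plus strand and Tlr11 at chr14:50357664-50357913 on the plus strand. The next 3 are Mmp8 at chr9:7558179-7558428 and Vnn3 at chr10:23851212-23851461, both on the plus strand, and Sirpb1b at chr3:15575066-15575315 on the minus strand. Pja2 lies at chr17:64331884-64332133 on the minus strand and Kbtbd8 at chr6:95117630-95117879 on the plus strand.
Phf11d: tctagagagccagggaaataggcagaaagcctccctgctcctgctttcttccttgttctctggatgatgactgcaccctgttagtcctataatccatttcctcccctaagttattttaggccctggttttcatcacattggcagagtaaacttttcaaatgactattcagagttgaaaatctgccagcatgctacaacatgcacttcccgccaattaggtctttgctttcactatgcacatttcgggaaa
Ly86: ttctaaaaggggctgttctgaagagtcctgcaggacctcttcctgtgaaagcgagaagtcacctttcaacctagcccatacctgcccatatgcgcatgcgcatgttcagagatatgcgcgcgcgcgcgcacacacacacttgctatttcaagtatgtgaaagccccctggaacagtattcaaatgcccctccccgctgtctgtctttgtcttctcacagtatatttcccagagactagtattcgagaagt
Tlr11: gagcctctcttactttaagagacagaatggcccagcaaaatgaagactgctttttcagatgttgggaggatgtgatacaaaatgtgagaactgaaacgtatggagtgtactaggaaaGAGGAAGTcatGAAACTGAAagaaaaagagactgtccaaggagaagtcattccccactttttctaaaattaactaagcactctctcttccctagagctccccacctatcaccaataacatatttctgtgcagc
Mmp8: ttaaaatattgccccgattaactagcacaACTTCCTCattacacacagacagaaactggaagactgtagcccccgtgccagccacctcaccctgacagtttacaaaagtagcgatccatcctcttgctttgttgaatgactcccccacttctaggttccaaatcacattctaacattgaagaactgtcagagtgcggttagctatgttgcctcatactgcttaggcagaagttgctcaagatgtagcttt
Vnn3: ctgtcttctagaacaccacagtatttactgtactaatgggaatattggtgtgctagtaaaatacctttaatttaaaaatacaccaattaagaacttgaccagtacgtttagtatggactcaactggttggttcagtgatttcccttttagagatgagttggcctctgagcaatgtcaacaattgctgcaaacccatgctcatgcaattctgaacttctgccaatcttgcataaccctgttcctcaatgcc
Sirpb1b: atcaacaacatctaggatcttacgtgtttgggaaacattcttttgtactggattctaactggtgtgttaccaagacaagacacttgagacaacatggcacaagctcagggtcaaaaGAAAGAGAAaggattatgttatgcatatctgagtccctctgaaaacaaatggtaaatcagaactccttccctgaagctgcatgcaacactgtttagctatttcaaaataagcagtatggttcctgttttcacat
Pja2: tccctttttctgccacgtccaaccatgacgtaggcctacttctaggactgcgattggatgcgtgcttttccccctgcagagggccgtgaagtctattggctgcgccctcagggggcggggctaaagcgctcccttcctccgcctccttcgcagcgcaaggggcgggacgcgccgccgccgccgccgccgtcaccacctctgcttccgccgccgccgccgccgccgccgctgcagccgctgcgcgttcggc
Kbtbd8: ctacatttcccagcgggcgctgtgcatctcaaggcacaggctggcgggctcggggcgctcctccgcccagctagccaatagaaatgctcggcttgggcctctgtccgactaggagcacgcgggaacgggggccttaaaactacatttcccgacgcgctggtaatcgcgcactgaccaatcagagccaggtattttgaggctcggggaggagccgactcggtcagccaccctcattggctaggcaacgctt
The Tlr11 promoter held both motifs, Mmp8 held the PU.1 motif and Sirpb1b held the tandem IRF motif. Phf11d, Ly86 and Vnn3 held none of the 3 motifs in these windows. The GC content was 70.0% in the Pja2 and 61.6% in the Kbtbd8 sequence, and it was lower in the other 6, from 38.8% in Sirpb1b to 50% in Ly86.

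The number of end sites per library ran from 20754 in X04 positive replicate 1 to 32476 in IRF8KO P9 replicate 3, with a median of 26817. Their share of all peaks ran from 10.68% in X04 positive replicate 1 to 21.63% in WT P14 replicate 1. By group, end sites numbered 30346 ± 117 (SD, n = 2) in WT and 31848 ± 562 (n = 3) in IRF8KO at P9, and 30874 ± 788 in WT and 26646 ± 241 in IRF8KO at P14 (each n = 2). At 10 months WT had 23430 ± 623, X04 negative microglia 24108 ± 1233 and X04 positive microglia 21042 ± 408 (each n = 2). A peak interval can hold several summits, and each was counted. With each interval counted once, X04 positive microglia had the most at 10 months, 18246 ± 542. WT then had 16656 ± 718 and X04 negative microglia 17454 ± 230. At P14 the order was also reversed, with 17419 ± 279 in WT and 18760 ± 727 in IRF8KO. At P9 these were 18844 ± 421 and 18710 ± 141. The lists differed in length, from 126060 to 194391 peaks, and weak peaks were less often at gene ends than strong ones. Counts were therefore also taken over the 30000 top peaks of each library, ranked by the authors' −log10 p, where end sites numbered 9773 to 10809, or 32.58% to 36.03%.

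End sites were concentrated among the best-ranked peaks in every library. Of the peaks ranked 1 to 1000, 61.7% to 84.9% were end sites, with a median of 69.9% over libraries. The median share was 49.9% at ranks 1001 to 5000, 24.19% at ranks 20001 to 30000 and 11.62% at ranks 100001 to 126060. Both X04 positive libraries fell more steeply than the others: 81.3% and 84.9% of their first 1000 peaks were end sites, above the 61.7% to 77.6% of the other 13, and at ranks 20001 to 30000 their shares of 14.22% and 16.5% lay below the 23.08% to 25.53% of the others. Among the top peaks, end sites were wider than other peaks in all 15 libraries, with median widths of 506 to 845 bp against 273 to 535 bp. Their median fold enrichment over background, the authors' value, was higher than that of other peaks in 9 of 15 libraries, so rank and height did not go together everywhere.

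**Figure D1:**
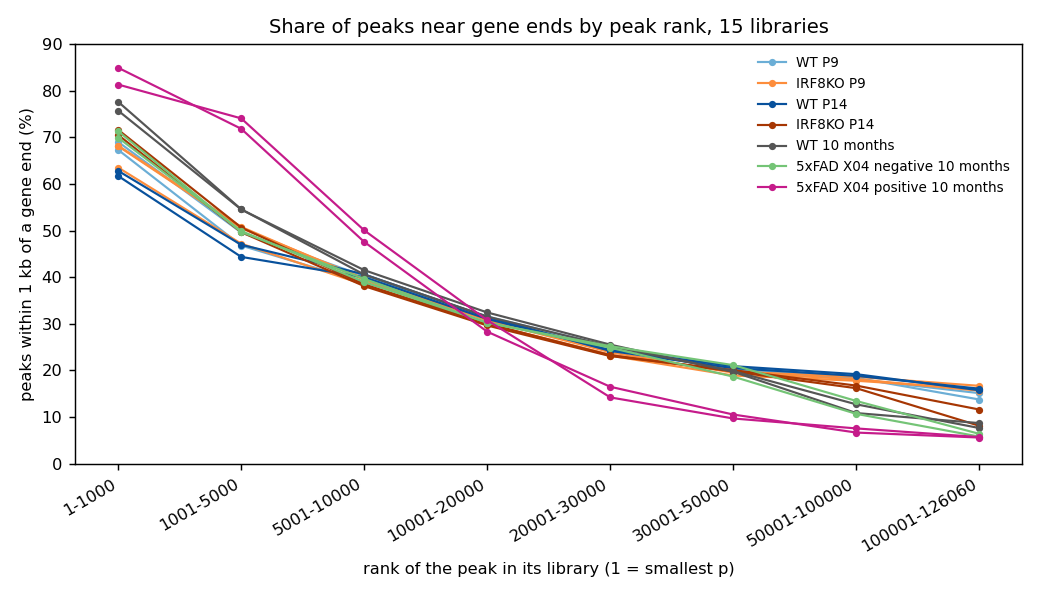
Share of peaks within 1 kb of a gene end, in percent, by the rank of the peak in its library (rank 1 has the smallest p). Each line is 1 of 15 libraries, coloured by group; the 2 X04 positive libraries start highest, at 81.3% and 84.9%, and from rank 20001 on lie below the others.

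Gene starts, and not far ends, made up most of the strong sites. The strand was known for 17274 of the genes (79.86%), which allowed the start to be told from the far end. Of the top end sites, 77.82% to 78.77% lay within 1 kb of a known start, 3.13% to 4.61% were near a far end only, and 16.73% to 17.65% were near genes of unknown strand only. Below rank 30000 the share near a far end only was 10.57% to 22.83%. At starts, 53.42% to 57.88% of the top sites had their summit within 100 bp. A median of 38.22% fell in the 100 bases before the start, against 18.76% in the first 100 bases of the gene. Inside the gene, the sites 200 to 300 bp from the start held 6.15%, more than the 4.06% at 100 to 200 bp. Before the start the share fell from 10.12% at 100 to 200 bp to 3.24% at 200 to 300 bp. At far ends no such concentration was seen: 2.83% to 6.2% of the sites were within 100 bp, and the 200 bases around the end held the lowest shares of the window, 1.96% and 3.12% per 100 bp.

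**Figure D2:**
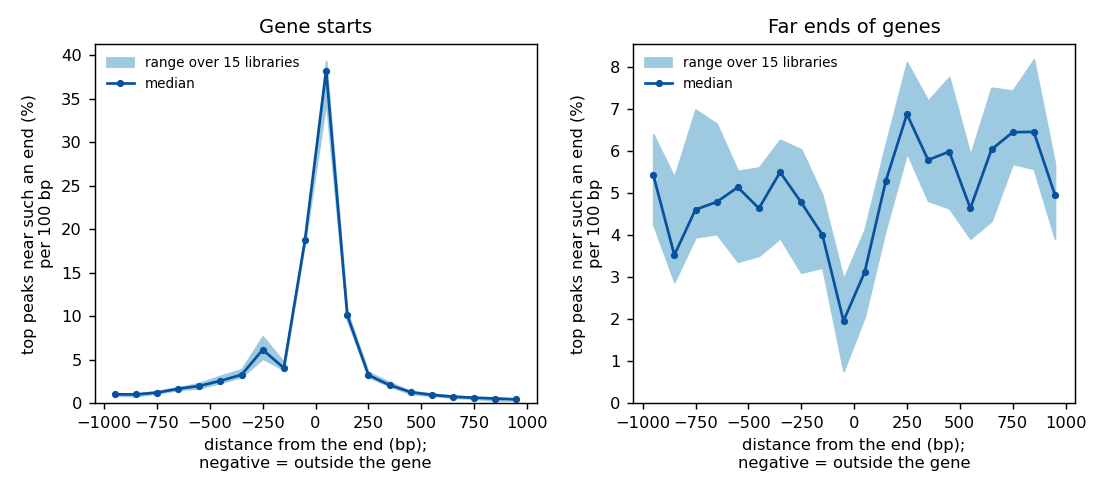
Distance of the summits of top peaks from gene starts (left) and from far ends (right), in bp. Negative values lie inside the gene and positive values outside it, although the axis label gives the signs the other way round. The y axis is the percent of the top peaks near such an end per 100 bp. The line is the median and the band the range over 15 libraries. Starts peak at 38.22% in the 100 bp just before the gene, and far ends dip to 1.96% in the last 100 bp of the gene.

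To compare libraries at the same place, the summits of all top peaks were merged in order of rank into 65384 regions at least 400 bp apart, of which 13072 (19.99%) were within 1 kb of a gene end. A region was strong in a library that had 1 of its 30000 top peaks within 200 bp. Of the end regions 5793 (44.32%) were strong in all 15 libraries, against 3908 of 52312 regions farther away (7.47%), so that 59.72% of the regions strong everywhere were at gene ends. Regions strong in a single library made up 14.31% of end regions and 38.85% of the others. Over the 13 libraries other than X04 positive, 51.03% of end regions and 15.61% of the others were strong in all. The share fell with distance, from 57.08% of 6500 regions at 0 to 100 bp from an end to 18.56% of 2451 at 501 to 1000 bp, 13.96% of 2965 at 1001 to 2000 bp and 5.69% of 27809 beyond 20 kb. Regions near starts on both strands, as at promoters that face in opposite directions, were strong in all 15 libraries in 651 of 1030 cases (63.2%), and regions near exactly 1 start in 4094 of 8527 (48.01%). These shares describe regions, which are not replicates, and no test was made of them. Among the top peaks, end sites also ranked better than other peaks, with a median rank of 11048 against 16742 (medians over libraries). A region ranked far above rank 30000 is more easily strong in every library. Sharing was not compared at matched rank, so the parts of position and rank were not told apart.

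**Figure D3:**
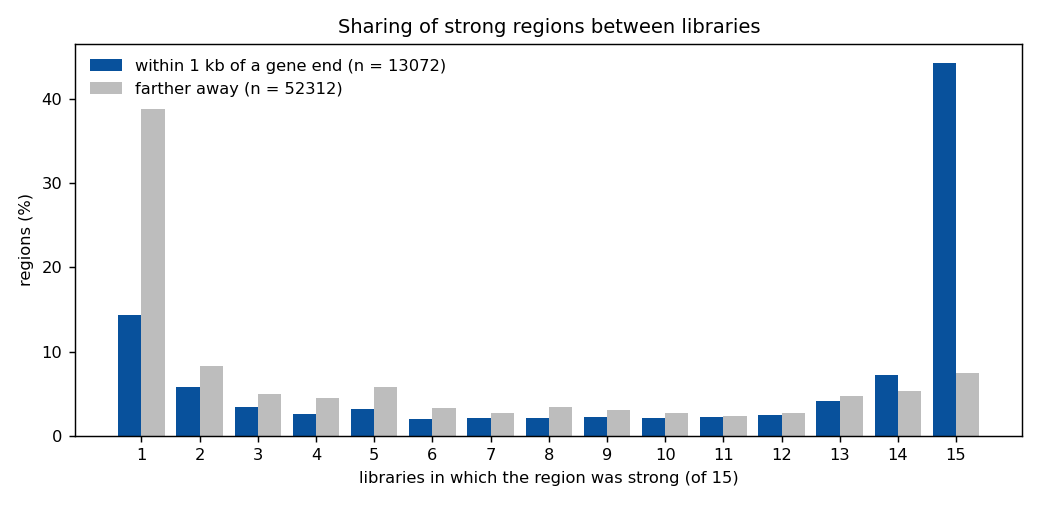
Percent of regions (y axis) by the number of libraries, 1 to 15, in which they were strong (x axis), for 13072 regions within 1 kb of a gene end and 52312 farther away. At 15 libraries the end regions reach 44.32% and the others 7.47%, and at 1 library 14.31% and 38.85%.

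Of the end regions with the best mean ranks, those at Pja2, Kbtbd8, Hmgcs1 and Wbp11 lay before gene starts. Pja2, a ubiquitin ligase, led with a mean rank of 14.27 ± 7.37 (SD, n = 15) and ranks from 7 in WT 10 months replicate 2 to 35 in X04 positive replicate 2; its region (chr17:64331928-64332328) lay 245 bp before the start. Kbtbd8, an adaptor of cullin ubiquitin ligases, had a mean rank of 33.8 ± 21.6, and Hmgcs1, an enzyme of sterol synthesis, one of 35.8 ± 31.2. Wbp11, a splicing factor, had a mean rank of 40.4 ± 30.5. No library ranked any of these 4 regions below 124, so they were near the top of every list, the weak X04 positive lists included.

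Promoters that were strong everywhere were rich in CpG. A promoter of 300 bases at the gene's own start was found for 15534 genes, and a strong site within 1 kb of it was seen in all 15 libraries for 5285 and in none for 6924. Median GC content was 61.7% in the former and 48.8% in the latter, and the ratio of observed to expected CpG was 0.82 and 0.22. Of promoters with a CpG ratio under 0.2, 1.6% had a strong site in all libraries, and of those at 0.8 to 1.0, 61.92%. Searched on both strands, the ETS core was found in 35.4% of promoters strong everywhere, in 6.2% of those strong nowhere and in 19.4% of all. The GC box (GGGCGG), which Sp1 binds, was found in 71.4%, 22.9% and 47.4%, and the TATA box (TATAAA) in 5.6%, 22.5% and 13.8%. CpG content and the letters GGGCGG and CCGGAA overlap in sequence, so these shares are not separate measurements.

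Genes were counted by whether they had a strong end region. Of 21631 genes 6827 (31.56%) had one in all 15 libraries and 9768 (45.16%) in none, and a single library had one at 9053 to 9485 genes. Among ribosomal protein genes, needed in every cell, 60 of 80 had a strong end region in all libraries. Among olfactory and vomeronasal receptor genes, which serve smell, 1441 of 1465 had one in no library, and among keratin genes 106 of 112. P2ry12 and Aif1, which microglia express, had 0 libraries with a strong end region; sites farther inside these genes were not looked at.

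Libraries overlapped more at gene ends than elsewhere in each of 105 pairs. The Jaccard index, the regions strong in both libraries over those strong in either, ran from 0.631 to 0.908 at gene ends (median 0.814) and from 0.202 to 0.808 farther away (median 0.503). IRF8KO with WT gave 0.819 to 0.831 at P9 and 0.809 to 0.818 at P14 at ends, and 0.516 to 0.521 and 0.502 to 0.506 elsewhere. For comparison, WT at P9 with WT at P14 gave 0.877 to 0.893 at ends and 0.754 to 0.792 elsewhere. The X04 positive libraries overlapped with each other at 0.693 at ends and at 0.225 elsewhere, and X04 negative with WT at 10 months at 0.851 to 0.865 and 0.684 to 0.714. The pairs share libraries and are given without a test, and the regions were not matched by rank.

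**Figure D4:**
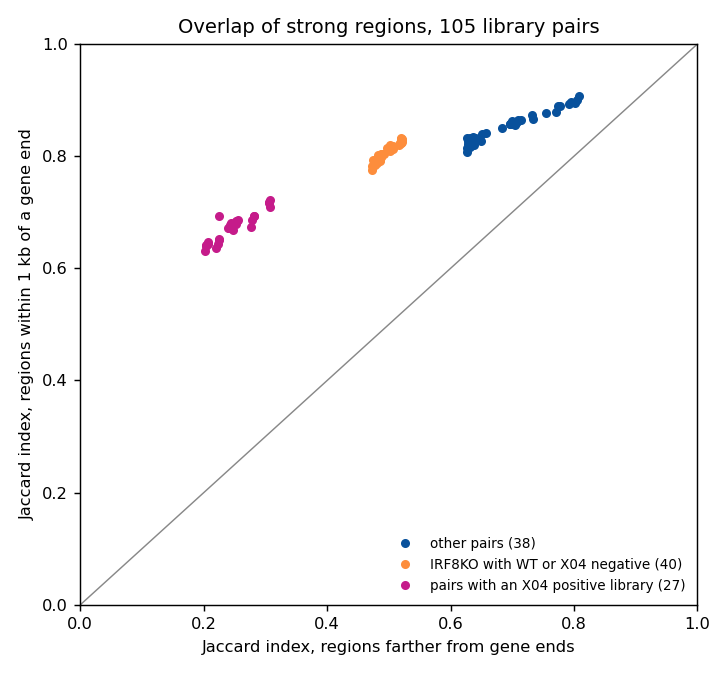
Jaccard index of strong regions within 1 kb of a gene end (y axis) against that of regions farther away (x axis), 1 point for each of 105 library pairs, with the line of equality. All points lie above the line, and pairs with an X04 positive library sit lowest on both axes.

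The loss of IRF8 was compared first by the share of end sites among the top peaks. At P9 this was 34.51% and 33.5% in WT and 33.31%, 33.84% and 32.58% in IRF8KO, and at P14 33.67% and 33.11% in WT and 32.89% and 33.32% in IRF8KO. The genotypes overlapped at both ages. The mean within-age difference, IRF8KO minus WT, was −0.5225 percentage points (n = 5 and 4, two-sided exact permutation test within age, p = 0.2; 60 arrangements, smallest p 0.0167). With 50000 top peaks in place of 30000 the difference was −0.7033 points and p = 0.0333 (exact permutation test), which passed the threshold. Over all peaks the share differed by −1.61 points (exact p = 0.2667) and the number of end sites by −1362 (exact p = 0.3333). At P9 the number was higher in every IRF8KO than in every WT library (31393 to 32476 against 30263 and 30428), and at P14 it was lower (26476 and 26817 against 30316 and 31431). The −log10 p at rank 30000 moved the same way, higher in IRF8KO at P9 (73.4 to 80.63 against 39.07 and 54.3) and lower at P14 (22.83 and 26.55 against 61.77 and 68.18), and its part in these numbers was not tested. These numbers count summits, and the pattern was not seen with each peak interval counted once. At P9 the genotypes then overlapped (18548 to 18795 in IRF8KO against 19141 and 18546 in WT). At P14 the direction was the opposite, with 18246 and 19274 in IRF8KO against 17222 and 17616 in WT.

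Few end regions changed between the genotypes. Presence as a strong region was compared at every region over 5 IRF8KO and 4 WT libraries, with genotype labels exchanged within age (exact permutation test, two-sided). Of 10763 end regions strong in any of the 9 libraries, 169 (1.57%) were higher and 165 (1.53%) lower in IRF8KO, where the background over all 42905 regions was 5.82% higher and 5.77% lower. Among the 32142 regions farther away 7.24% were higher and 7.18% lower. Only 584 of the end regions and 5746 of the regions farther away could reach the smallest p. Of these, 334 and 4635 were called in either direction, so part of the gap lies in how many regions could be called. Each called region was strong in every library of 1 genotype and in none of the other, at an exact permutation p = 0.0167, the smallest the design allows, and adjusted p = 0.0212 (Benjamini-Hochberg). The call is of a rank and not of presence: when a summit of any rank counted as present, 36 end regions were higher and 33 lower. No region was called when 1 WT P9 library was left out (smallest p 0.0417; 196 higher and 194 lower unadjusted without replicate 1, 188 and 185 without replicate 2), or 1 of the 3 IRF8KO P9 libraries (smallest p 0.0556, so none unadjusted). With 1 P14 library left out, 174 to 198 were higher and 179 to 197 lower.

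The called end regions were set beside those strong in all 9 libraries by their place at the gene. Of 7031 end regions strong in all 9, 80.27% had a known start as nearest end, 3.0% a far end, and 76.83% were within 200 bp. Of the 169 higher in IRF8KO, 43.2% were at a start, 30.18% at a far end and 43.2% within 200 bp of an end. Of the 165 lower, 58.79% were at a start, 25.45% at a far end and 38.79% within 200 bp. The gene kept another end region strong in all 9 libraries in 32.54% of the higher and 30.3% of the lower cases. At promoters of genes with a called start, the PU.1 motif was found in 7 of 60 with a higher region (11.7%), in 7 of 89 with a lower one (7.9%) and in 3.2% of all promoters. The tandem IRF motif was found in 13.3% and 13.5% of these, against 8.3% of all, and the ETS core in 12 of the 60 and 10 of the 89 (11.2%), against 19.4% of all. These are counts of letters over few promoters, without a test.

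A stricter comparison asked for regions strong in every library of 1 genotype and absent, with no summit within 400 bp among the 126060 top peaks, in every library of the other. At P9 26 end regions were higher in IRF8KO (background over all regions 2.13%, 0.319% of the 8146 that could be called at ends) and 14 were lower (background 2.23%, 0.167% of 8376). At P14 29 were higher (background 2.46%, 0.36% of 8054) and 20 lower (background 2.76%, 0.242% of 8262). Groups of 2 and 3 libraries cannot reach p under 0.05, since the smallest exact p is 0.1 at P9 and 0.33 at P14, so these are counts without a test. Without IRF8KO P14 replicate 1 the P14 count was 44 higher, and without WT P14 replicate 1 it was 35 lower. At both ages 15 end regions were higher (background 1.45%, 0.198% of the 7566 that could be called at ends) and 8 lower (background 1.77%, 0.102% of 7878). The same call held for 292 (higher) and 395 (lower) of the regions farther from an end.

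Among the 10 best-ranked end regions higher at both ages, the regions at Micu3, Mmp8, Vnn3, Sirpb1b, Psen2 and Pou2af1 lay within 200 bp of a gene end. Micu3, a regulator of the mitochondrial calcium uniporter, had the best ranks: 4698, 2044 and 2148 in the IRF8KO P9 and 1574 and 6700 in the IRF8KO P14 libraries. In WT it had a summit only in P9 replicate 2, at rank 147872, and none of the 6 libraries at 10 months had one. The region (chr8:40388408-40388808) was 174 bp inside the gene, whose strand was not known. Mmp8, which encodes the neutrophil collagenase, had a site 31 bp before its start at ranks 10287, 8733, 10758, 10899 and 16322 in the 5 IRF8KO libraries. In WT it was missing at P9 and at ranks 126334 and 146467 at P14, while the 4 WT and X04 negative libraries at 10 months had it at ranks 44470 to 78132.

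Vnn3, of the vanin family of pantetheinases, had a site 42 bp before its start at ranks 9230 to 18449 in IRF8KO and no summit in any of the other 10 libraries. Sirpb1b, a receptor of the signal-regulatory protein family, had one 2 bp outside its start at ranks 9675 to 25304. Psen2, which encodes presenilin 2 of the gamma-secretase complex, had one 103 bp before its start at ranks 12469 to 22679, and no other library had a summit there. Pou2af1, a transcription coactivator known from B cells, had one 149 bp beyond its far end. The other 4 regions lay more than 200 bp from an end. Ms4a7, a membrane protein of macrophages, had a site 215 bp inside its far end at ranks 8033 to 12032. Arpc5, a subunit of the Arp2/3 actin complex, had one 755 bp inside its far end, and Serpinb2, a plasminogen activator inhibitor, one 220 bp beyond its far end. The region at Iqca1l lay 544 bp outside a gene of unknown strand.

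Of the 8 genes with an end region lower at both ages, Ly86, Gimap1 and Phf11d had their summit nearest to the start, at 0, 2 and 26 bp inside the gene. Phf11d, which encodes a PHD finger protein, had ranks 3997 and 3638 in WT P9 and 2613 and 3224 in WT P14, and no summit in any of the 5 IRF8KO libraries. At 10 months WT had it at ranks 5911 and 9560, X04 negative microglia at 6815 and 6890, and X04 positive microglia at 12145 and 47458. Ly86, which encodes MD-1, the partner of the receptor RP105, ranked 13861 to 16912 in the young WT libraries and had no summit in IRF8KO. Tlr11, a Toll-like receptor of microbial profilin and flagellin, had a site 127 bp before its start at ranks 16975, 18659, 26421 and 17305 in WT. In IRF8KO it was found once, at rank 144527.

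Gimap1, a GTPase of immune cells, had a site 2 bp inside its start at ranks 15107 to 22577 in young WT and none in IRF8KO or X04 positive libraries. Plppr4, a lipid phosphatase-related protein known from neurons, had the best ranks of the 8, 891 to 1668 in young WT, at a site 729 bp inside its far end. That site had no summit in IRF8KO and was strong in all 6 libraries at 10 months, at ranks 684 to 11031. Swap70, a signalling protein of immune cells, had one 506 bp inside its far end at ranks 10377 to 12420, and Spata13, a guanine nucleotide exchange factor, one 937 bp beyond its far end at ranks 18056 to 27325. The region at Hars2, a mitochondrial histidyl-tRNA synthetase, lay 186 bp inside the gene at ranks 17093 to 25391.

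End regions of 20 gene lists were counted in the same test. The members and lists were chosen with results of these data known, so they give no independent support. Called end regions were found at genes of 6 lists, and the other 14 held none. Over all genes, 180 (0.832%) had a higher and 178 (0.823%) a lower end region. Of 24 homeostatic microglia genes 3 had a lower end region and none a higher one. Sparc, a secreted matrix protein, had a site 146 bp inside its start at ranks 5171, 7966, 11521 and 5149 in WT and at 37398 to 64557 in IRF8KO. Crybb1, a crystallin, had one at 13971 to 20813 in WT and 49842 to 63700 in IRF8KO. Sall1, a transcription factor of microglial identity, had one 434 bp inside its start at 15417 to 22099 in WT, and in IRF8KO it was found in 1 library at rank 156457.

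Among genes of border-associated macrophages, which line the meninges and vessels of the brain, 2 of 14 had a higher end region and none a lower one. Pf4, a chemokine, had a site 11 bp before its start at ranks 18242, 17921, 24606, 11048 and 15335 in IRF8KO and 35974 to 91593 in WT. Ms4a7 had a second region, 9 bp inside its start, at 10725 to 26633 in IRF8KO and 79982 to 145744 in WT. Of 28 genes of disease-associated microglia, Lgals3, a galectin, and Ccl4, a chemokine, had higher end regions. Lgals3 ranked 7541 to 18109 in IRF8KO and 57006 to 93979 in WT, and Ccl4 10142 to 24239 and 33173 to 37992. None of the 28 had a lower one. Of 22 myeloid transcription factor genes, 1 had a higher end region and none a lower one: Bhlhe40 ranked 5411 to 10715 in IRF8KO and 80797 to 134809 in WT. Of 21 genes of complement and phagocytosis, 1 had a higher and 1 a lower end region. C3, the central complement component, ranked 17439 to 22109 in IRF8KO and was found in 2 WT libraries, at 96954 and 118620. Tlr2, a receptor of bacterial lipoproteins, ranked 13756 to 16991 in WT and 30435 to 58223 in IRF8KO.

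Among the lists of other cells, 2 had genes with a called end region. Of 13 oligodendrocyte lineage genes, 3 to 4 had a strong end region in each young WT library and 0 to 1 in each IRF8KO library. Mog, a myelin protein, ranked 10797 to 14387 in WT and 65185 to 89151 in IRF8KO, and Cnp, a myelin enzyme, 16912 to 25754 and 66862 to 119543; both were called lower. The defining genes Mag, Olig2 and Sox10 had 0 libraries with a strong end region. Of the 14 border-associated macrophage genes, 2 to 3 had one in young WT and 5 to 7 in IRF8KO libraries, and Lyve1, Cd163, F13a1 and Stab1 were at 0 libraries. The lists of neurons, astrocytes, endothelial cells, lymphocytes, neutrophils, monocytes and liver had at most 2 genes with a strong end region in any library at P9 or P14. Single genes of these lists differed too, without a call. Cd3d, of the lymphocyte list, was strong in 1 WT and 3 IRF8KO libraries at P9 and in 0 and 2 at P14. Cxcr2, of the neutrophil list, was strong in 2 WT and 1 IRF8KO libraries at P9 and in 2 and 0 at P14. The part of such cells in the genotype comparison was not tested.

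Irf8 itself had a strong end region in 15 of 15 libraries. The labels do not say which part of Irf8 is missing in the IRF8KO line, so this site could not serve as a check of the genotype. Of the 10 genes of the IRF family and its partners, Irf1, Irf2, Irf3 and Irf4 were also at 15 libraries. Of 19 interferon response genes 6 were at 15 libraries, among them Stat2, Irf9, Ifit2 and Ifit3, and none had a called end region. Cxcl10, an interferon-induced chemokine, had a strong end region in 2 of 2 WT libraries at each age, in 0 of 3 IRF8KO libraries at P9 and in 1 of 2 at P14. Irf7, a factor of the interferon response, had one in 0 of 2 WT libraries at each age, in 2 of 3 IRF8KO libraries at P9 and in 1 of 2 at P14, so these 2 genes of the list differed in opposite directions.

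X04 negative 5xFAD microglia differed little from WT at 10 months at gene ends. Strong against absent, 4 end regions were higher (background 0.154%, 0.0489% of 8175) and 2 lower (background 0.0668%, 0.0234% of 8560). Of the 4 higher regions, 3 were at Thy1, a surface glycoprotein of neurons and T cells. The region at chr9:44048721-44049121, 342 bp outside the gene, ranked 9272 and 4174 in X04 negative and 296 and 401 in X04 positive microglia. In the other 11 libraries it was found 2 times, at ranks 144135 and 144969. The region at chr9:44043233-44043633, 49 bp inside the other end, ranked 18429 and 15066 in X04 negative and 2550 and 1552 in X04 positive libraries. Since the 5xFAD transgenes carry mouse Thy1 sequences, open chromatin of the transgenes and of the gene itself cannot be told apart in these lists. The fourth was at Tmem52, which ranked 25569 and 25873 and had no summit in either WT library.

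The 2 lower regions were at Zfp951 and Atp2b1. The start of Zfp951, a zinc finger gene, was strong in both WT libraries at 10 months (ranks 7415 and 5562) and had no summit in any of the 4 5xFAD libraries. It was also strong in all 5 IRF8KO libraries, at ranks 5368 to 7677, while the young WT libraries had it at ranks 89264 to 106152 or not at all. Atp2b1, a calcium pump of the cell membrane, had a site 624 bp before its start in WT (9375 and 25807) and none in X04 negative microglia, but ranked 10995 and 9528 in X04 positive microglia. The count of lower regions was 4 without WT replicate 1, and also 4 without X04 negative replicate 1. Over the top peaks, WT had 10809 and 10657 end sites, X04 negative microglia 10224 and 10159, and X04 positive microglia 10581 and 10775. X04 negative lay below both others, and groups of 2 allow no exact p under 0.33.

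Most calls at 10 months involved the X04 positive libraries. Against WT, 26 end regions were higher (background 1.36%, 0.352% of 7396) and 176 lower (background 9.24%, 2.06% of 8560). Against X04 negative microglia, 28 were higher (background 1.63%, 0.379% of 7396) and 134 lower (background 9.38%, 1.64% of 8175). The 2 comparisons share the X04 positive libraries. Both X04 positive libraries were weak, as given above, and the counts moved with each: against WT, 307 were higher and 521 lower without replicate 1, and 167 and 375 without replicate 2. Against X04 negative they were 357 and 458 without X04 positive replicate 1 and 186 and 321 without replicate 2. Leaving out a WT library gave 45 and 269 (replicate 1) or 49 and 261 (replicate 2), and leaving out an X04 negative library gave 83 and 248 (replicate 1) or 52 and 222 (replicate 2).

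Cd200r1, the receptor of the inhibitory ligand CD200, had a site 13 bp outside its gene that was strong in 13 libraries, at ranks 6903 and 10636 in WT and 12063 and 13180 in X04 negative microglia. In X04 positive microglia it was found once, at rank 180324. Adgre4, an adhesion receptor of macrophages, had its start at 24430 and 13984 in WT and 11457 and 8979 in X04 negative microglia, and no summit in X04 positive libraries. The same held for the far end of Scrn3 (7238 and 8408 in WT, 7173 and 10263 in X04 negative), for a site near the far end of Stip1, a cochaperone, that also lies by Fermt3, an activator of integrins, and for regions at 2210016L21Rik and Eif2a. Tlr11 ranked 9974 and 7000 in X04 negative libraries and was found once in X04 positive libraries, at rank 150156. The region at Gm52363 ranked 9345 and 8584 in X04 negative libraries and was found in 1 X04 positive library, at rank 128463.

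Of the regions higher in X04 positive microglia, a further one was at Thy1, 685 bp inside the gene, at ranks 13628 and 8693. Cntn4, a neuronal adhesion protein, had a start site at 15471 and 7598, against 42342 and 54050 in X04 negative microglia and no summit in WT. Morn4 had one 9 bp before its start at 15431 and 12791, and no other library had a summit there. Gpr173, an orphan receptor, and regions at Arsi and Nipal2 were the others by rank, at 9453 to 17574. Of 15 neuronal genes, 6 to 9 had a strong end region in the X04 positive libraries and 0 to 1 in each of the other 13. Syt1, Map2, Stmn2 and Camk2a had one only in both X04 positive libraries, and Tubb3 also in 1 WT library at 10 months. Syn1 had one in both X04 positive and in 2 of 2 IRF8KO P14 libraries. Snap25 had one in 1 X04 positive and 1 IRF8KO P9 library, and Nefm and Grin1 in 1 X04 positive library each. Rbfox3, Gad1, Gad2, Slc17a7, Nefl and Dcx were at 0 libraries. The part of neuronal material and of the weak libraries in these counts was not tested.

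Few end regions were strong at one of P9 and P14 and absent at the other. Between WT at P14 and P9, 0 end regions were higher (background 0.00396%) and 0 lower (background 0.012%). Between IRF8KO at P14 and P9, 1 was higher (background 0.00833%) and 0 lower (background 0%). These are counts without a test. The 1 region lay 28 bp before the start of Gucy1b1, a subunit of soluble guanylate cyclase. It ranked 24334 and 22455 in IRF8KO P14, and 137445 and 129650 in 2 of the 3 IRF8KO P9 libraries. It was also strong in all 6 libraries at 10 months, with ranks of 852 and 571 in X04 positive and 8289 to 19847 in the others. Without IRF8KO P14 replicate 1 the count was 5, and without WT P9 replicate 1 the count of higher regions in WT was 1. WT at 10 months overlapped less with the young WT libraries, at a Jaccard index of 0.827 to 0.835 at ends with P9 and 0.808 to 0.828 with P14. Age and the MetoxyX04 treatment cannot be told apart there, and no regions were called between those groups.

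The lists differed in how constant their end regions were. The median number of libraries with a strong end region was 2 over all genes, 15 for the cell cycle, ribosomal protein and core transcription lists, 14 for antigen presentation, 13.5 for homeostatic microglia, 9.5 for disease-associated microglia, 1 for border-associated macrophages and neurons, and 0 for the 7 other lists of foreign cells. Among the 24 homeostatic genes, 9 had a strong end region in 15 libraries, among them Tmem119, Cx3cr1, Siglech, Mertk and Tgfbr1. Another 5 had one in none: P2ry12, Gpr34, Selplg, Slc2a5 and Aif1. Csf1r was at 3 libraries and P2ry13 at 7. Among genes of disease-associated microglia, Tyrobp, Ctsb, Ctsl and Fabp5 were at 15 libraries, and Apoe and Cst7 at 1 and 4. Itgax, an integrin of activated microglia, was at 0 of 9 young libraries, 2 of 2 WT, 1 of 2 X04 negative and 1 of 2 X04 positive libraries at 10 months. Gpnmb, Lpl and Igf1 were at 0 libraries. Every library of a group had a strong end region at 17 of the 24 homeostatic genes in WT P9 and at 16 in WT at 10 months. In X04 positive microglia this was 10, where each library alone had 12. The fall from WT at 10 months was not particular to this list. Antigen presentation had 11 and 6 of 14, interferon response 11 and 6 of 19, and the cell cycle list 16 and 15 of 20. Inflammatory genes stayed at 8 of 20, and the neuronal list rose from 0 to 6 of 15.

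**Figure D5:**
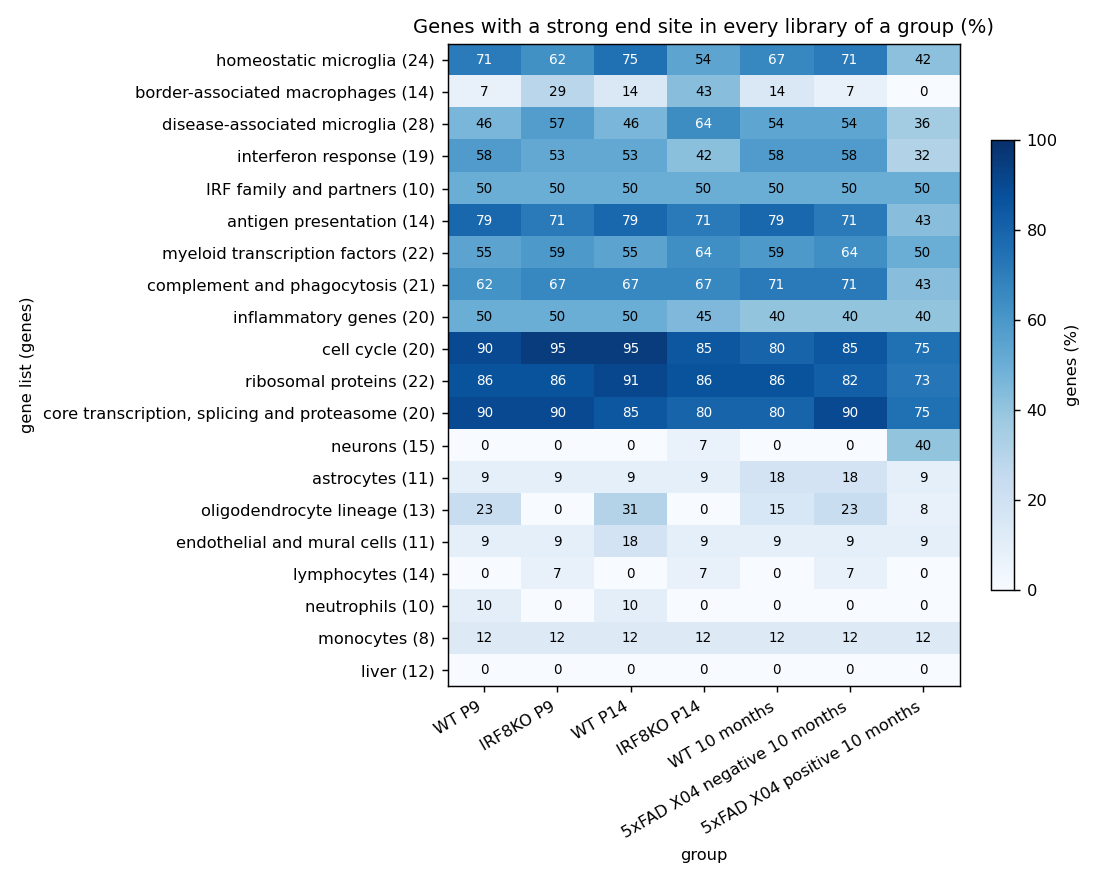
Percent of the genes of each list (rows, number of genes in brackets) with a strong end region in every library of a group (columns), on a scale of 0 to 100. The cell cycle, ribosomal protein and core transcription lists are high in all 7 groups, and the neuronal list reaches 40% only in X04 positive microglia.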

How the data were processed

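ATAC-seq was measured in 15 libraries of sorted microglia. The submitters' processing notes name MACS2 2.2.7.1, bcl2fastq, deepTools and Bowtie2 and the build mm10; their settings are not given in the sources used here. The authors deposited 1 peak list for each library, so peaks were called per sample. Each list holds a fold enrichment at the summit (a ratio the authors deposited), −log10 p and −log10 q as the authors' peak caller gave them, and the summit's offset in bp, another number deposited by the authors. The lowest −log10 p was 2.0 to 2.001 in the lists. Read counts were not analysed here, and peaks carry no counting interval. A stronger library ranks its sites more precisely, and the X04 positive libraries are the least precise.

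Ranks followed −log10 p in each list, because fold and p depend on the depth of the library. Gene ends came from the RefSeq table of GRCm38.p6, which gives 1 start and 1 end per gene and no exons, so exons, introns and UTRs were not told apart. The strand came from RefSeq promoter sequences, available for 79.86% of genes. Regions, strong and absent calls used 30000 top peaks, 200 bp and 400 bp. A list may hold several summits in 1 interval; each was kept.

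Genotypes were compared by two-sided exact permutation tests within age (60 arrangements), adjusted by Benjamini-Hochberg over regions able to reach the smallest p, and called under 0.05. Other comparisons, with 2 libraries a group, are counts without a test. No 2 libraries held identical values. WT and IRF8KO libraries were not treated as pairs: same-numbered deviations from the group means correlated at −0.024 at P9 and 0.003 at P14. Such values do not tell whether same-numbered libraries were prepared together.

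The members and lists were chosen with earlier results of these data known. Named genes were the 10 best-ranked end regions in each direction called at both ages, up to 15 list genes with an end region called over both ages, up to 5 per direction in each other comparison, the 5 best-ranked over all libraries, and list members with their library counts. Promoters were shown for the first 3 genes in each direction and the first 2 over all libraries with a sequence, chromosome 18 left out. Some genes that this rule takes in are not reported here. Of the list genes, Mx1 was not matched. The scripts were tested on simulated data and used scipy 1.17.1, pandas 2.3.3 and numpy 2.4.6 in Python 3.11.15. Tried as alternatives were 20000 and 50000 top peaks, windows of 500 bp and 2 kb, ranking by fold, 1 summit per interval, fewer genes, no chromosome X, other definitions of presence, and each library left out.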

Additional observations from a re-analysis of the deposited data

How the results depend on the processing

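The ranking depth set most counts. Ranks stand in for accessibility here, depth was not analysed, and the 2 weak X04 positive lists limit the comparisons at 10 months. The difference in the share of end sites between IRF8KO and WT passed the threshold only with 50000 top peaks (−0.7033 points). Averaged over ages it was negative in every alternative, but ranked by fold it was −0.0275 (exact permutation p = 0.9833), with means of 26.1% in IRF8KO and 29.16% in WT at P9 and, in the opposite direction, 29.38% and 26.37% at P14. With labels exchanged within same-numbered libraries as a replicate block it was −0.3558, and 0 regions were higher and 0 lower, since the smallest p is then 0.125 (0 also unadjusted). Over both ages 109 end regions were higher and 104 lower within 500 bp, 285 and 272 within 2 kb, and 36 and 33 when a summit of any rank counted; leaving out 1 library gave 0 to 198 and 0 to 197.

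Counts of strong against absent followed the number of top peaks. With 20000 and 50000 top peaks, IRF8KO against WT gave 10 and 71 higher at P9, 12 and 84 higher and 9 and 72 lower at P14; with 50000, 52 were lower at P9. X04 negative against WT gave 2 and 12 higher and 1 and 6 lower, X04 positive against WT 12 and 65 higher and 52 and 644 lower, and X04 positive against X04 negative 12 and 75 higher and 44 and 609 lower. IRF8KO at P14 against P9 gave 0 and 8 higher and, with 50000, 1 lower; WT at P14 against P9 gave 1 higher and 1 lower with 50000. Ranking by fold gave 2 higher and 1 lower for X04 negative against WT and 0 higher for IRF8KO at P14 against P9.

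Leaving out 1 library gave 32 to 44 higher and 26 to 35 lower at P14, 2 to 4 lower for X04 negative against WT, 45 to 307 higher and 261 to 521 lower for X04 positive against WT, and 52 to 357 higher and 222 to 458 lower for X04 positive against X04 negative. For the ages it gave 0 to 1 higher in WT and 1 to 5 higher in IRF8KO. The cause of these shifts was not tested beyond the fewer libraries each call then needs.

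The share of end regions strong in all libraries was 42.51% and 41.84% with 20000 and 50000 top peaks, 50.26% and 38.7% within 500 bp and 2 kb, 36.67% when ranked by fold, 40.31% with 1 summit per interval, 66.23% over the top 126060 peaks, 58.85% without both X04 positive libraries, and 44.48% to 50.69% without any 1 library. Regions farther away stayed between 5.5% and 22.99% in these settings. Of 30 called regions at named genes, 14 kept complete separation with 20000 top peaks, 25 with 50000, 18 when ranked by fold and 28 with 1 summit per interval.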

Other observations

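The share of regions that lay at gene ends differed between chromosomes. It was 28.01% on chromosome X (363 of 1296 regions), 26.6% on chromosome 19 and 26.26% on chromosome 7, and 15.99% on chromosome 18. The share of end regions strong in all 15 libraries was 41.05% on chromosome X, and on the autosomes it ran from 36.9% on chromosome 11 to 50.49% on chromosome 16. Counted by gene, 17.49% of the 966 genes on chromosome X had a strong end region in all libraries, below the 25.27% to 35.76% on the autosomes. Gene density was not adjusted for.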
